A study of Homo sapiens with 12 samples.

Results

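DNA replication genes were examined as a set of 46 genes named by their known roles, from the licensing of origins to the copying, joining and repackaging of the DNA. All 46 passed the filter on low counts and were among the 15692 genes tested. Expression was measured by RNA-seq in 12 libraries of HCT 116p53-/- cells, a colorectal cancer line whose labels give a p53-/- genotype, and of a sub-line that the labels call RPL3 KO and the study calls uL3Δ and describes as stably silenced for uL3, the ribosomal protein encoded by RPL3. Each line was treated with 5 nM actinomycin D (Act D) or with vehicle for 24 h, with 3 libraries, called biological replicates by the labels, in each of the 4 groups. All 4 groups therefore share the p53-/- genotype, and the line comparison rests on a single sub-line. The comparisons asked how Act D, which at low dose blocks transcription of ribosomal RNA genes, acted on these genes in each line, and how the lines differed.

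DNA replication begins when the origin recognition complex, CDC6 and CDT1 load a ring of 6 MCM proteins onto DNA in G1 phase. In S phase CDC45 and the GINS complex turn that ring into a helicase, polymerase alpha with primase starts each strand, and polymerases delta and epsilon extend it on the sliding clamp PCNA, which the RFC complex loads. Most of these genes are transcribed in late G1 and S phase under E2F factors, so that their level in a dividing population rises and falls with the share of cells preparing for or passing through S phase. In bulk RNA, fewer such cells and less RNA per cell cannot be told apart.

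The promoters of these genes shared a sequence feature that played no part in choosing them. RefSeq windows on GRCh38.p14 (the hg38 build), from 250 bases before to 50 bases after a transcription start, were found for 39 of the 46 genes. An E2F-type motif, TTNNCGC with C or G at each N and on either strand, was present in the windows of 32 of the 39 (82.1%), against 24.6% of the 11319 tested genes with a window and 13% of all 35116 windows. CCAAT, on either strand, was present in 26 of the 39 (66.7%), against 43.0% of the tested genes and 34.6% of all windows. TTTGAA, the core of the CHR element of mitotic genes, was present in 1 of the 39, against 13.9% of the tested genes and 15.2% of all windows, whereas 8 of 12 windows of G2/M genes held it and 3 of those 12 held an E2F-type motif. CDC45, FEN1, MCM10, POLD1, POLD2, PRIM2 and RNASEH2A had a window without an E2F-type motif. A match is a description of the letters and not a mapped binding site.

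The 6 windows below belong to the genes on which the comparisons turned, and E2F-type and CCAAT matches are in capitals. They are CHAF1A (ENSG00000167670, chr19:4402390-4402689, plus strand), CHAF1B (ENSG00000159259, chr21:36385142-36385441, plus strand), PCNA (ENSG00000132646, chr20:5126573-5126872, minus strand), POLE2 (ENSG00000100479, chr14:49688165-49688464, minus strand), RFC4 (ENSG00000163918, chr3:186806433-186806732, minus strand) and POLA2 (ENSG00000014138, chr11:65261712-65262011, plus strand), each written 5′ to 3′ on the strand of the gene and ending in its first transcribed bases.
CHAF1A: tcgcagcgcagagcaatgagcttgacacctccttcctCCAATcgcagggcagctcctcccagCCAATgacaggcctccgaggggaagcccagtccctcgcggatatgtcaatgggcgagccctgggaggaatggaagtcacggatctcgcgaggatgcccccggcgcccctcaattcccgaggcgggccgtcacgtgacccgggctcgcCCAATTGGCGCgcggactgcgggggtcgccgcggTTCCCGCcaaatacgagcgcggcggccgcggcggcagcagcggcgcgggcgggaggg
CHAF1B: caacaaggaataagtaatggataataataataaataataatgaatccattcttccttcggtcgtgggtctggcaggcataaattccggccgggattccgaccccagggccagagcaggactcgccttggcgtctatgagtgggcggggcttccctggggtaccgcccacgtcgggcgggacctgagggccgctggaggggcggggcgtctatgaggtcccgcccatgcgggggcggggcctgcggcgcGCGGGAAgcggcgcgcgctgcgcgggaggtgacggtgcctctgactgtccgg
PCNA: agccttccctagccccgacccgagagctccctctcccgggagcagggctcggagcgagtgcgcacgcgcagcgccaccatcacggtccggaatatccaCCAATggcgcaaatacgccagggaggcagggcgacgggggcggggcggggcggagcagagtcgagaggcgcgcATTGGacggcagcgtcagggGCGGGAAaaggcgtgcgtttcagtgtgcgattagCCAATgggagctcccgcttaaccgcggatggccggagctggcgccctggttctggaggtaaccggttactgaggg
POLE2: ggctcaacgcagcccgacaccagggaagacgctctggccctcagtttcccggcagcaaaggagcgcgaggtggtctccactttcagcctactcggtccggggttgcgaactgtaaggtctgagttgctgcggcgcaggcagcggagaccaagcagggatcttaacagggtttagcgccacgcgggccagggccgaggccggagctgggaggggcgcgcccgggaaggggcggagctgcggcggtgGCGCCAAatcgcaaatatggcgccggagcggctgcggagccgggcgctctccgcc
RFC4: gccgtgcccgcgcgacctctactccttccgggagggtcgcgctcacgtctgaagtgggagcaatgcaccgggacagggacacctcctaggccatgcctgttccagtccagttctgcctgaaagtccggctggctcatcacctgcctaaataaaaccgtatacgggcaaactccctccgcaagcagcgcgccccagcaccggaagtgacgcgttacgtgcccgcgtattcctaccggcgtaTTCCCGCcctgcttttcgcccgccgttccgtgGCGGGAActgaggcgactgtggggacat
POLA2: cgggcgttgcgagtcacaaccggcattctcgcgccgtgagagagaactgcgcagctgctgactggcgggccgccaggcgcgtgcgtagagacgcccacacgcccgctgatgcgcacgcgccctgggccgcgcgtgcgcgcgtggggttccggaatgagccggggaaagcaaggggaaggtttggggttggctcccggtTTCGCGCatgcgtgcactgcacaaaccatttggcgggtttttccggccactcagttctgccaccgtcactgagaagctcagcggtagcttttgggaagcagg
CHAF1A held 2 E2F-type and 4 CCAAT matches, of which the third and the fourth CCAAT overlap each other and the first E2F-type match. PCNA held 1 E2F-type and 3 CCAAT matches. RFC4 held 2 E2F-type matches and no CCAAT, and CHAF1B, POLE2 and POLA2 held 1 E2F-type match and no CCAAT.

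RPL3 itself was not lower in the libraries labelled uL3Δ. Its level in CPM, the read count scaled to the normalised size of the library, was 1151, 1121 and 1141 in vehicle-treated HCT 116p53-/- libraries and 1188, 1337 and 1202 in vehicle-treated libraries labelled uL3Δ, and under Act D it was 1137, 1132 and 1112 against 1259, 1132 and 1279. The difference did not pass the test with vehicle (log2 fold change 0.13, SE 0.08, adjusted p = 0.155 by the quasi-likelihood test of edgeR, adjusted after Benjamini and Hochberg over all genes) or with Act D (0.12, SE 0.08, adjusted p = 0.187), and its sign turned when libraries were scaled by their totals alone. Every direction between the lines below is therefore one between libraries that carry these labels. Marker genes also set the libraries apart. CDH1, the adhesion protein of epithelial cells, was at 66.8 CPM in vehicle-treated HCT 116p53-/- libraries and 0.445 CPM in those labelled uL3Δ, and VIM, a mesenchymal filament protein, at 22.0 and 2237 CPM. Summed over 14 colon epithelial markers the level was 2679 to 2889 CPM in vehicle-treated and 2880 to 3016 CPM in Act D-treated HCT 116p53-/- libraries, and 1616 to 1814 CPM and 1761 to 2011 CPM in those labelled uL3Δ; 9, 10, 7 and 7 of the 14 reached 1 CPM, and CDX1 was at 0 in every HCT 116p53-/- library. Under the uL3Δ label CDH1, KRT20, VIL1, CDX1, CDX2, CEACAM5 and CLDN7 were below 1 CPM. In vehicle-treated HCT 116p53-/- libraries KRT20, VIL1, CDX1, CEACAM5 and CLDN3 were below it as well. With vehicle, CDH1, CDX2 and CLDN7 were thus below 1 CPM under the uL3Δ label alone, and CLDN3 in HCT 116p53-/- libraries alone. The 11 mesenchymal markers summed to 50.3 to 59.8 CPM, 59.8 to 92.8 CPM, 2543 to 2628 CPM and 2552 to 2883 CPM in the same order. VIM alone made up most of the sum in vehicle-treated libraries labelled uL3Δ. In the same order 4, 4, 7 and 7 of the 11 reached 1 CPM, and TWIST1, COL1A2, THY1 and DCN were below it in all 4 groups. Of the 7 that were tested, 6 were called higher and 1 lower under the uL3Δ label with vehicle. What part these differences have in the line comparisons was not tested. Totals per library lay between 10087925 and 21138886 expected counts.

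Summed over the 46 replication genes, the level was 4516 to 4599 CPM in HCT 116p53-/- libraries with vehicle and 4291 to 4331 CPM with Act D. Where the label was uL3Δ the sum was 4162 to 4604 CPM with vehicle and 3889 to 4270 CPM with Act D. In TPM, a level that is corrected for transcript length, PCNA was the most abundant in vehicle-treated HCT 116p53-/- cells (193 ± 11.4 TPM, SD, n = 3), followed by MCM7, MCM4, RRM2 and TK1, and POLA2, the second subunit of polymerase alpha, was the lowest at 4.93 TPM. In vehicle-treated libraries labelled uL3Δ, MCM4 was first at 125 ± 40.5 TPM and CHAF1B, the middle subunit of chromatin assembly factor 1, was last at 2.04 TPM. MCM7 was second there (102 ± 14 TPM). MCM4 ran from 94.9 to 171 TPM and MCM7 from 89.5 to 117 TPM over these libraries, and their difference within a library was not tested. The small RNA genes RN7SL1, RN7SL2 and RN7SK took 6.30% to 7.85% of the counts in HCT 116p53-/- libraries and 8.04% to 11.5% in those labelled uL3Δ, so TPM values were used to compare genes within a library only.

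**Figure D1:**
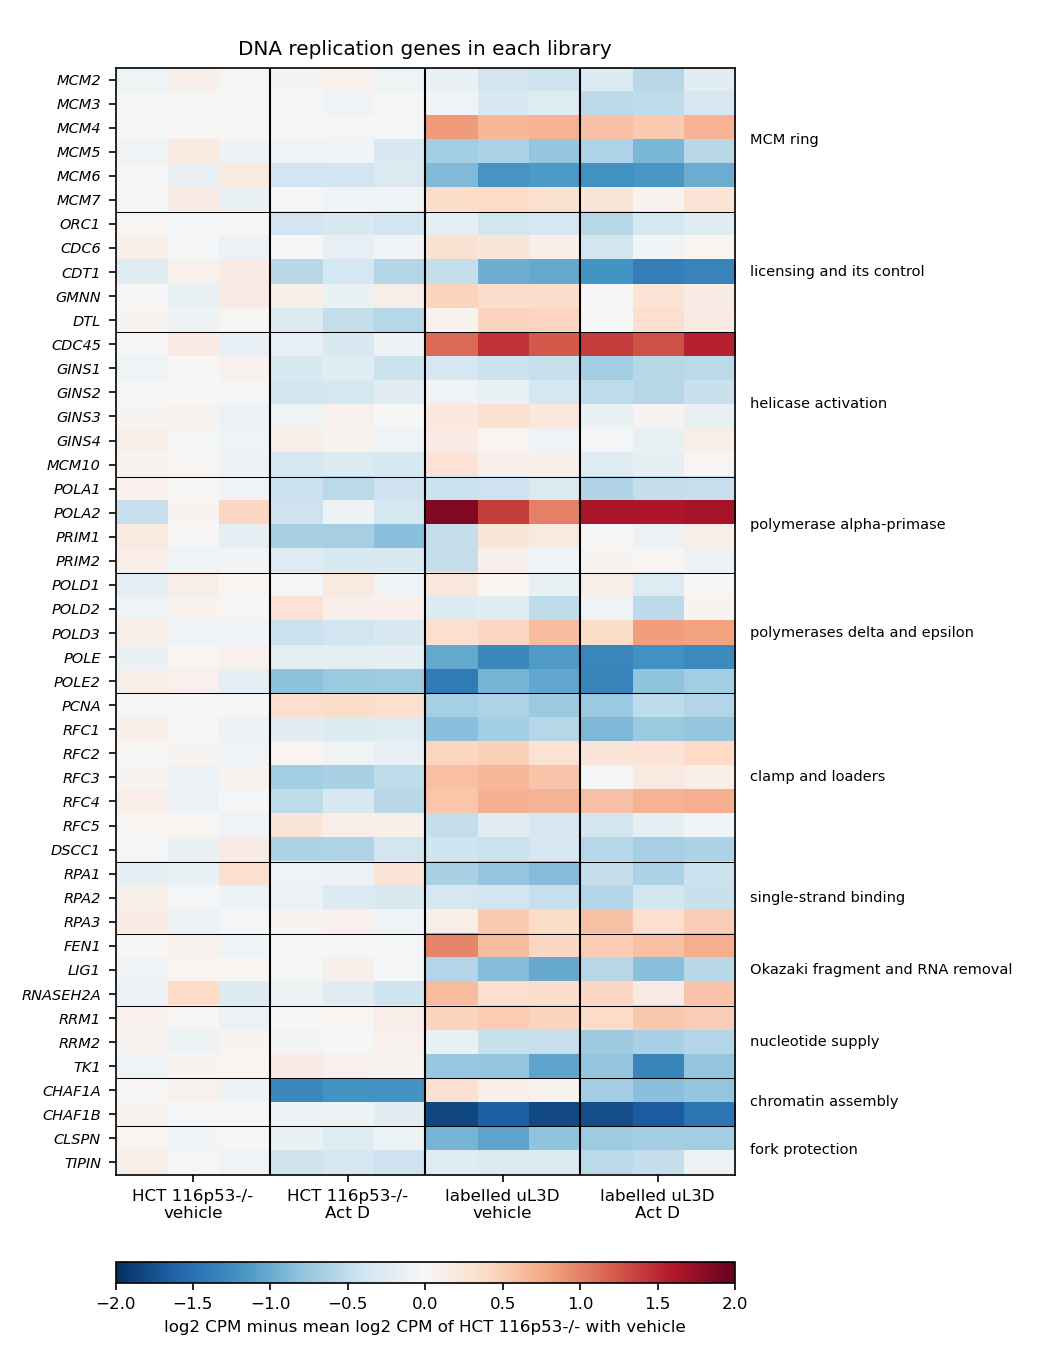
Expression of the 46 DNA replication genes (vertical, by role) in the 12 libraries (horizontal, 3 per group), as log2 CPM minus the mean log2 CPM of the vehicle-treated HCT 116p53-/- libraries. CHAF1A is the darkest blue of the Act D-treated HCT 116p53-/- libraries (25.3, 27.0 and 27.0 CPM against 57.6 to 65.3 CPM), while POLA2 and CDC45 are red and CHAF1B blue in all 6 libraries labelled uL3Δ.

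In HCT 116p53-/- cells, Act D lowered 16 replication genes and raised 1, PCNA. These 17 genes are 37.0% of the 46, beside 18.7% of all genes tested that were called, and the 16 lower are 34.8%, beside 11.1% of all genes, while 7.59% of all genes were called higher. The median log2 fold change was -0.18 over the 46 genes and 0.02 over all genes tested. CHAF1A, the large subunit of chromatin assembly factor 1, which places histones on newly made DNA, fell the most. It was at 62.4, 65.3 and 57.6 CPM with vehicle and at 25.3, 27.0 and 27.0 CPM with Act D, and the groups were far apart (log2 fold change -1.22, SE 0.09, adjusted p = 1.15e-07 by edgeR's quasi-likelihood test). PCNA, the sliding clamp, was at 285, 287 and 289 CPM with vehicle and 362, 371 and 363 CPM with Act D, a rise of 0.35 on the log2 scale (SE 0.08, adjusted p = 0.00351).

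Several genes of the clamp loaders and of the enzymes that start DNA strands also fell. RFC3, a subunit of the clamp loader, went from 47.1, 41.7 and 47.5 CPM to 28.2, 28.8 and 32.0 CPM (log2 fold change -0.62, SE 0.09, adjusted p = 0.000135), and no Act D library reached the lowest vehicle library. RFC4, another subunit, was at 47.8, 40.1 and 43.0 CPM with vehicle and 30.5, 35.0 and 29.5 CPM with Act D (-0.46, SE 0.10, adjusted p = 0.00231), and DSCC1, of an alternative clamp loader, fell from 51.5 ± 5.35 to 35.5 ± 3.69 CPM (SD, n = 3). Of the clamp and its loaders 3 of 7 fell and PCNA rose. RFC1, RFC2 and RFC5 did not pass the test. PRIM1, the catalytic primase subunit, was at 30.4, 26.7 and 23.2 CPM with vehicle and 17, 16.7 and 14.9 CPM with Act D (-0.72, SE 0.16, adjusted p = 0.00355). PRIM1 shares exons with ENSG00000285625, and the sum of both went from 30.1 to 35.4 CPM down to 19.4 to 19.7 CPM. POLA1, the catalytic subunit of polymerase alpha, was the other of the 4 genes of polymerase alpha-primase that fell, while POLA2 and PRIM2 did not pass the test.

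Among the replicative polymerases POLE2, the second subunit of polymerase epsilon, was at 18.1, 17.8 and 14.6 CPM with vehicle and 9.53, 10.1 and 10.3 CPM with Act D. The groups did not overlap (log2 fold change -0.76, SE 0.16, adjusted p = 0.00259). POLD3, of polymerase delta, also fell, and POLD1, POLD2 and POLE did not pass the test. In origin licensing CDT1, which brings the MCM ring to origins, fell from 80.9 ± 11.4 to 56.9 ± 5.18 CPM (-0.51, SE 0.13, adjusted p = 0.0115). ORC1 and DTL, the latter a receptor for CDT1 destruction, fell as well, and CDC6 and the CDT1 inhibitor GMNN did not pass the test. Of the 6 helicase activation genes GINS1, GINS2 and MCM10 fell, and of the MCM ring MCM6 alone, from 155 ± 18.8 to 121 ± 4.62 CPM. The fork protection gene TIPIN completed the 16, and CLSPN did not pass the test.

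Other functions showed no called gene among the 46. None of the genes for single-strand DNA binding (RPA1, RPA2, RPA3), for Okazaki fragment joining and RNA removal (FEN1, LIG1, RNASEH2A) or for nucleotide supply (RRM1, RRM2, TK1) passed edgeR's quasi-likelihood test or DESeq2's. Of these 9 only RPA2 was at an unadjusted p under 0.05, beside 4869 of the 15692 genes tested. Over the 29 genes not called the estimates ran from -0.33 to 0.16, and their 95% intervals lay between -0.77 (POLA2) and 0.41 (POLD2) on the log2 scale. Vehicle and Act D values were fully separate for 25 of the 46 genes (54.3%, beside 38.2% of all genes), lower with Act D for 22 (beside 20.0%) and higher for 3 (beside 18.2%). The calls of CHAF1A, RFC3, RFC4, DSCC1, PRIM1, POLA1, POLE2 and PCNA held under every alternative run. The other 9 did not, and the count was 9, 11 and 10 when the first, the second or the third Act D library was left out, in turn. CDT1 lost its call without the third vehicle library (adjusted p = 0.0564), the first Act D library (0.0557) or the third (0.0577), and MCM6 without the third vehicle library (0.103), the first Act D library (0.0708) or the second (0.0712).

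**Figure D2:**
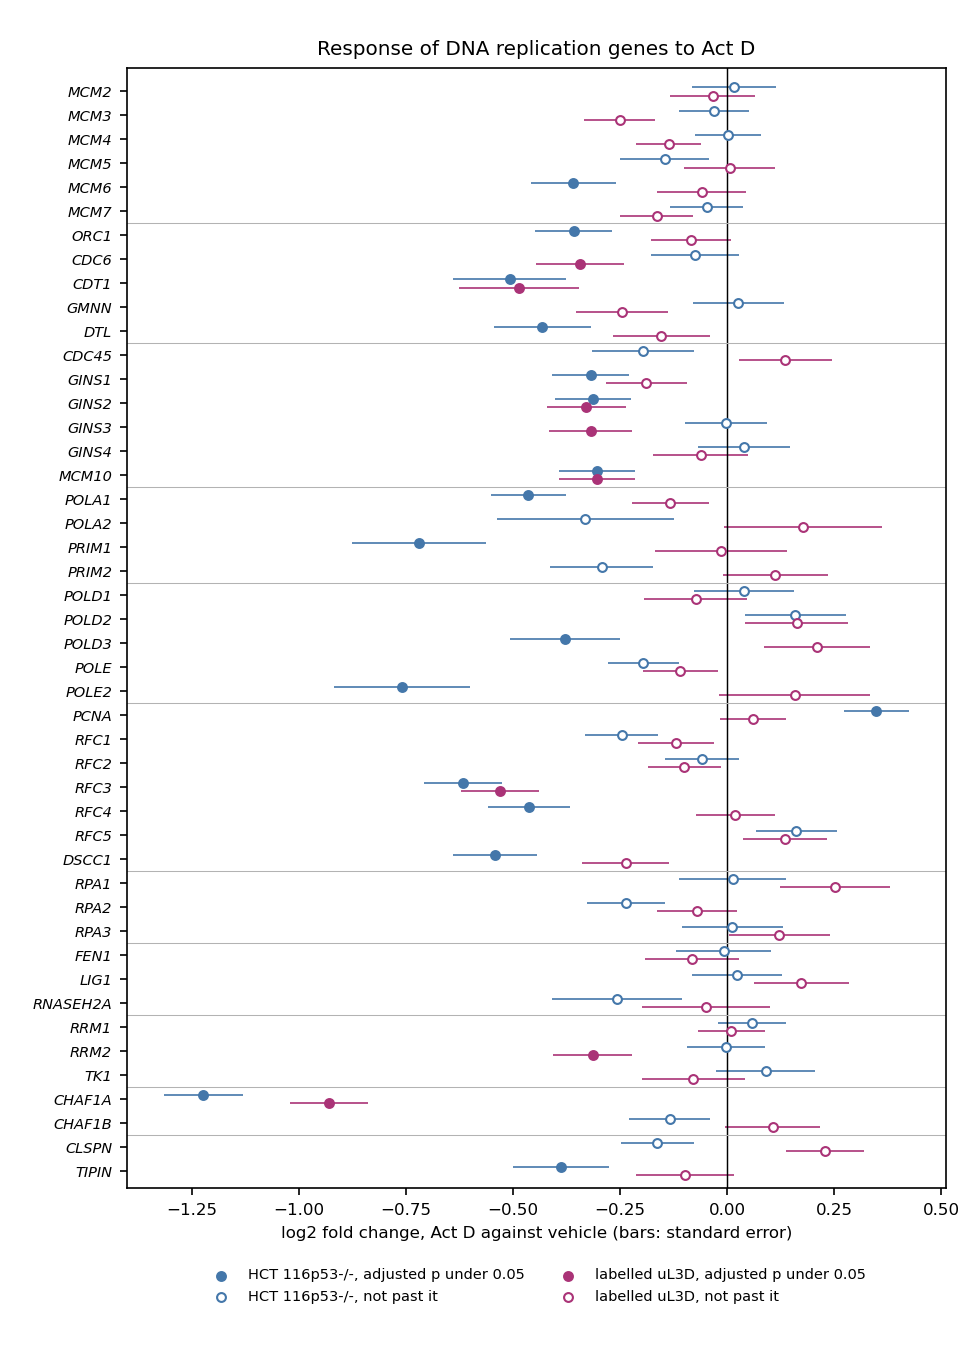
Log2 fold change of each of the 46 genes (vertical) with Act D against vehicle in HCT 116p53-/- cells (blue) and in libraries labelled uL3Δ (purple), with standard errors; filled points passed an adjusted p under 0.05. CHAF1A lies at -1.22 and -0.93, RFC3 at -0.62 and -0.53, and PCNA is the single filled point to the right of 0, at 0.35.

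In the sub-line labelled uL3Δ, 8 of the 46 genes fell with Act D (17.4%, beside 11.9% of all genes called and 8.4% called lower). None was higher, beside 3.51% of all genes, by edgeR's quasi-likelihood test or by DESeq2. At an unadjusted p under 0.05, 1 gene, CLSPN, was higher, beside 1737 of the 15692 genes tested. The median log2 fold change was -0.08, beside 0.03 over all genes. CHAF1A again fell the most, from 76.1, 66.3 and 65.0 CPM to 38.4, 34.5 and 35.6 CPM (log2 fold change -0.93, SE 0.09, adjusted p = 6.3e-06), with every Act D library below every vehicle library. RFC3 went from 69.1, 71.7 and 67.2 CPM to 43.9, 51.3 and 49.3 CPM (-0.53, SE 0.09, adjusted p = 0.000754). Its groups did not overlap either.

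The other 6 decreases were smaller and concerned licensing, helicase activation and nucleotide supply. CDT1 fell from 57.7, 41.0 and 39.4 CPM to 35.2, 30.8 and 31.9 CPM (log2 fold change -0.49, SE 0.14, adjusted p = 0.0302), and CDC6, its partner in loading the ring, fell by 0.34 on that scale (SE 0.10, adjusted p = 0.0376). GINS2 and GINS3 of the GINS complex fell by 0.33 and 0.32 (SE 0.09 and 0.10, adjusted p = 0.0255 and 0.0393), and MCM10, which helps to start the helicase, and RRM2, the small subunit of ribonucleotide reductase, were the other 2. No gene of the MCM ring, of polymerase alpha-primase or of polymerases delta and epsilon was called, by edgeR's quasi-likelihood test, in the libraries labelled uL3Δ. Of these 15 genes MCM3 alone was at an unadjusted p under 0.05, beside 3989 of the 15692 genes tested, and DESeq2 called it lower. The 38 genes not called had estimates between -0.25 and 0.25 and 95% intervals between -0.47 (GMNN) and 0.57 (POLA2) on the log2 scale. Vehicle and Act D values were fully separate for 16 of the 46 genes (34.8%, beside 27.6% of all genes); 14 of these were lower under Act D (beside 14.8%) and 2 higher (beside 12.8%).

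Only the calls of CHAF1A and RFC3 held under every alternative run in the libraries labelled uL3Δ. The count of 8 became 2 without the first vehicle library, and 3 without the first or without the second Act D library. CDT1 lost its call without the first vehicle library (adjusted p = 0.146), the second Act D library (0.0794) or the third (0.0656). CDC6, GINS2 and GINS3 each lost theirs when the first vehicle library (0.107, 0.0899 and 0.0526) or the first Act D library (0.182, 0.0706 and 0.132) was left out, among others.

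**Figure D3:**
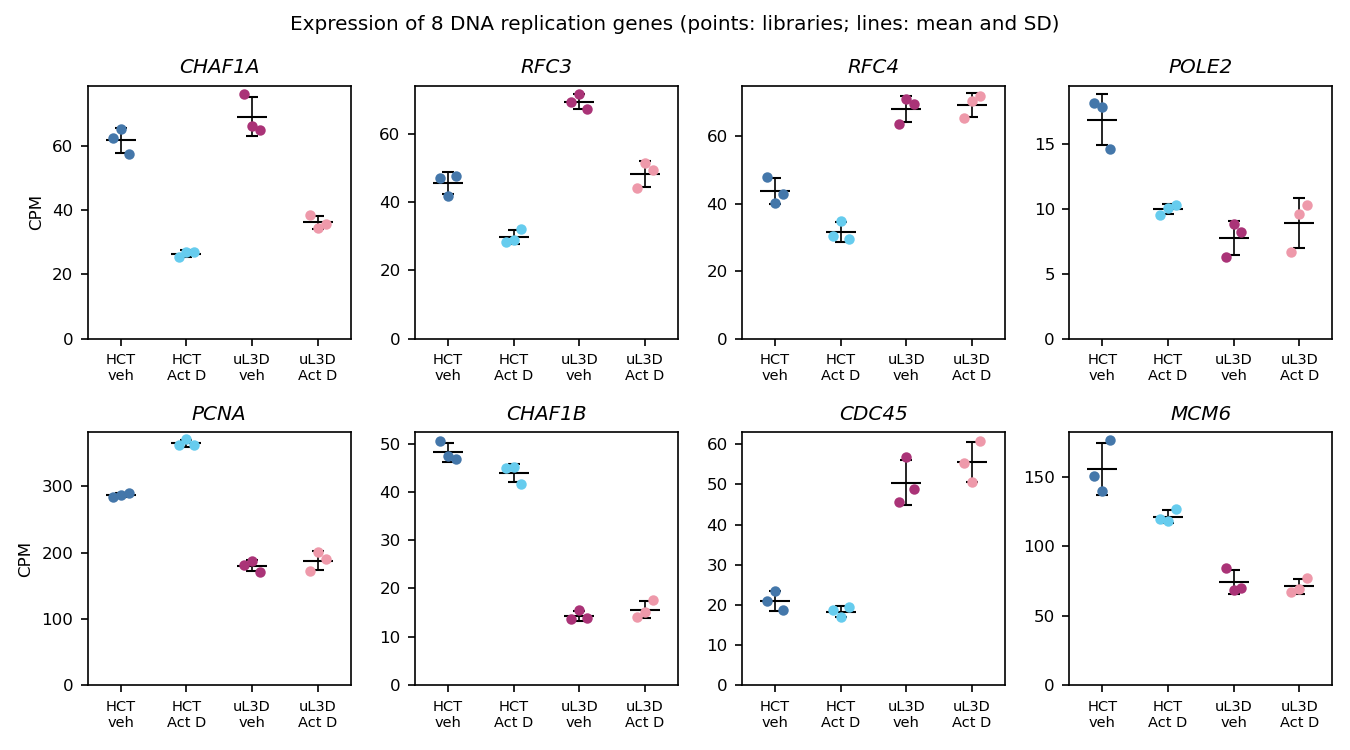
CPM (vertical, from 0) of 8 replication genes in each of the 4 groups (horizontal), with points for the 3 libraries of a group and black lines for mean and SD. RFC4 falls with Act D from 43.6 to 31.6 CPM in HCT 116p53-/- cells and is at 68.1 and 69.2 CPM in the libraries labelled uL3Δ, while CHAF1A falls in both.

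The responses of the lines were compared directly by the interaction in the same fit. CDT1, CHAF1A, GINS2, MCM10 and RFC3 were called lower in both lines, which is 29.4% of the 17 genes called in HCT 116p53-/- cells and 62.5% of the 8 called in the libraries labelled uL3Δ. The like shares over all genes are not given here. The response itself differed for 2 of the 46 genes (4.35%, beside 6.53% of all genes), POLE2 and RFC4, both higher (beside 3.3%). POLE2 was at 6.27, 8.81 and 8.17 CPM with vehicle and 6.69, 9.59 and 10.3 CPM with Act D where the label was uL3Δ, in which the groups overlapped, and its response was higher there by 0.92 on the log2 scale (SE 0.24, adjusted p = 0.0272). RFC4 was at 63.7, 71.1 and 69.7 CPM with vehicle and 65.3, 70.3 and 72.0 CPM with Act D in those libraries, and its response was higher by 0.48 (SE 0.13, adjusted p = 0.0363).

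No response was called lower in the libraries labelled uL3Δ by edgeR's quasi-likelihood test or DESeq2, beside 3.23% of all genes. At an unadjusted p under 0.05, 3 were lower and 10 higher, beside 1674 and 1652 of the 15692 genes tested. For PRIM1, at 19, 31.3 and 30.1 CPM with vehicle and 26.8, 24.6 and 28.8 CPM with Act D under the uL3Δ label, the difference between the responses did not pass the test, though DESeq2 called it. For the 44 genes without a called difference the 95% intervals reached from -0.60 (GINS3) to 1.17 (PRIM1) on the log2 scale, so that apart from POLE2 and RFC4 the genes called in HCT 116p53-/- cells alone are not thereby shown to respond differently. Both calls depended on single libraries: POLE2 and RFC4 were both lost without any of 6 libraries, namely the first vehicle library or the first or the third Act D library of HCT 116p53-/- cells, or the first vehicle library or the second or the third Act D library labelled uL3Δ.

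Between the lines with vehicle, 38 of the 46 genes differed (82.6%, beside 71.3% of all genes called). With the label uL3Δ, 15 genes were higher (32.6%, beside 35.1% of all genes) and 23 lower (beside 36.2%), or 7 higher and 25 lower when libraries were scaled by their totals alone. The changes went in both directions inside most functional groups, as they did over all genes tested. CHAF1B, the partner of CHAF1A, was at 50.4, 47.4 and 46.8 CPM in HCT 116p53-/- libraries and 13.7, 15.6 and 13.8 CPM in those labelled uL3Δ (log2 fold change -1.74, SE 0.10, adjusted p = 4.06e-11). CDC45, the helicase activator, was at 20.9, 23.4 and 18.6 CPM against 45.7, 56.7 and 48.9 CPM (1.27, SE 0.11, adjusted p = 1.37e-08). Both differences were far beyond the spread of the libraries.

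POLA2 was the gene with the largest increase, from 11.1, 15.8 and 20.3 CPM in HCT 116p53-/- libraries to 55.4, 40.3 and 30.9 CPM in those labelled uL3Δ with vehicle (log2 fold change 1.41, SE 0.19, adjusted p = 3.67e-06). Its counts are less certain, because it shares exons with the overlapping gene ENSG00000285816 and RSEM divides their reads. The 2 genes together came to 24.5 to 28.8 CPM and 56.1 to 69.9 CPM in the same libraries, so that the sum kept the direction and the lines did not overlap. Smaller increases were those of FEN1, the flap nuclease of Okazaki fragments (0.69, SE 0.11), RFC4 (0.64, SE 0.09) and RFC3 (0.61, SE 0.09). Lower under the uL3Δ label were POLE, the catalytic subunit of polymerase epsilon (-1.15, SE 0.09), POLE2 (-1.11, SE 0.16), the checkpoint mediator CLSPN (-0.93, SE 0.09) and the thymidine kinase TK1 (-0.86, SE 0.12).

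All 6 genes of the MCM ring differed between the lines. MCM4 was at 319, 325 and 319 CPM in vehicle-treated HCT 116p53-/- libraries and 579, 511 and 522 CPM in those labelled uL3Δ (log2 fold change 0.74, SE 0.08, adjusted p = 1.05e-07). MCM6 was at 150, 140 and 176 CPM against 84.3, 68.4 and 69.8 CPM (-1.07, SE 0.10, adjusted p = 3.32e-08). MCM7 was called higher too, but not when libraries were scaled by their totals alone, and MCM2, MCM3 and MCM5 were called lower. The call of MCM2 was lost without the second HCT 116p53-/- library (adjusted p = 0.0568) or the third labelled uL3Δ (0.0538), and that of MCM3 without the first or second HCT 116p53-/- library (0.0748 and 0.0701) or the second or the third labelled uL3Δ (0.136 and 0.102). The encoded proteins assemble in equal numbers, and on the TPM scale the most abundant of the 6 transcripts exceeded the least abundant 2.99 to 4.01 times in the 3 vehicle-treated HCT 116p53-/- libraries and 10.2 to 11.7 times in the 3 labelled uL3Δ. With Act D these ratios were 3.87 to 4.09 and 9.11 to 12.2.

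**Figure D4:**
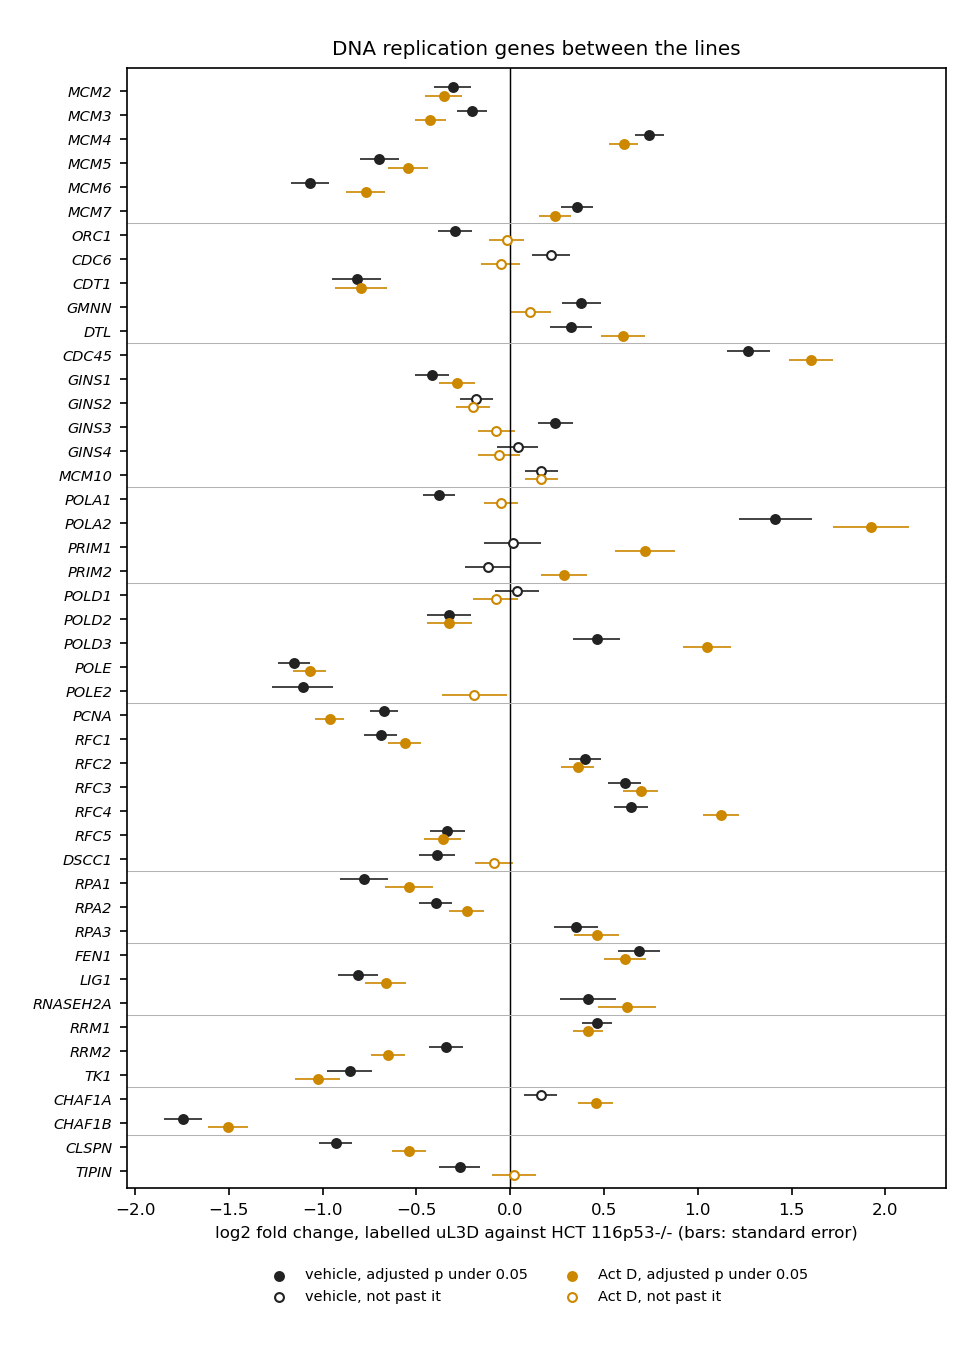
Log2 fold change of each of the 46 genes (vertical) between libraries labelled uL3Δ and HCT 116p53-/- libraries, with vehicle (black) and with Act D (orange), with standard errors; filled points passed an adjusted p under 0.05. CHAF1B lies at -1.74 and -1.50 and CDC45 at 1.27 and 1.60.

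Most of the remaining functional groups were split as well, but POLE and POLE2 of polymerase epsilon were both lower, as were both fork protection genes. Of the clamp and its loaders, with vehicle, RFC2, RFC3 and RFC4 were higher and PCNA, RFC1, RFC5 and DSCC1 lower where the label was uL3Δ. RPA3, the smallest subunit of the single-strand binding complex, was higher and RPA1 and RPA2 lower. In ribonucleotide reductase the large subunit RRM1 was higher and the small subunit RRM2 lower, and the TPM ratio of RRM1 to RRM2 was 0.406 ± 0.0391 in HCT 116p53-/- and 0.680 ± 0.0907 in the libraries labelled uL3Δ (SD, n = 3). In licensing CDT1 and ORC1 were lower and GMNN and DTL higher, with a TPM ratio of CDT1 to GMNN of 1.04 ± 0.201 and 0.444 ± 0.113. FEN1 and RNASEH2A were higher and the ligase LIG1 lower. GINS3 was higher and GINS1 lower, POLD3 higher and POLD2 lower, and POLA1 and TIPIN lower. CDC6, GINS2, GINS4, MCM10, PRIM1, PRIM2, POLD1 and CHAF1A did not pass the test, with 95% intervals between -0.37 (PRIM2) and 0.43 (CDC6). RNASEH2A shares exons with THSD8, and the sum of both overlapped between the lines, at 43.8 to 49.3 CPM and 47.5 to 58.0 CPM. The calls of 26 of the 38 genes held under every alternative run. The increases of MCM7, GMNN, DTL, GINS3, POLD3, RFC2, RPA3 and RNASEH2A were no longer called when libraries were scaled by their totals alone.

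With Act D, 34 of the 46 genes differed between the lines (73.9%, beside 70.4% of all genes), of which 16 were higher (beside 35.1%) and 18 lower (beside 35.3%) in the sub-line labelled uL3Δ, or 10 and 26 when libraries were scaled by their totals alone. Of these, 31 were also called with vehicle, in the same direction, which is 81.6% of the 38 and 91.2% of the 34. As 71.3% of all genes were called with vehicle, a large overlap is not by itself particular to these genes. The overlap over all genes is not given here. The genes called with Act D and not with vehicle were CHAF1A, PRIM1 and PRIM2, all higher in the libraries labelled uL3Δ. CHAF1A stood at 25.3, 27.0 and 27.0 CPM against 38.4, 34.5 and 35.6 CPM, and PRIM1 at 17, 16.7 and 14.9 CPM against 26.8, 24.6 and 28.8 CPM (log2 fold change 0.72, SE 0.16, adjusted p = 0.000652). The call of CHAF1A was lost when libraries were scaled by their totals alone (adjusted p = 0.103), and that of PRIM2 was lost without any 1 of the 6 libraries compared (adjusted p of 0.067 to 0.145).

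The largest differences with Act D concerned many of the same genes as with vehicle. POLA2 was at 11.5, 14.2 and 12 CPM in HCT 116p53-/- libraries and 47.3, 46.7 and 48.7 CPM in those labelled uL3Δ (log2 fold change 1.92, SE 0.20), and together with ENSG00000285816 at 18.8 to 21.7 CPM and 57.2 to 64.2 CPM. RFC4, which Act D lowered in HCT 116p53-/- cells, was at 30.5, 35.0 and 29.5 CPM against 65.3, 70.3 and 72.0 CPM (1.13, SE 0.10, adjusted p = 8.51e-09). PCNA, which Act D raised there, was at 362, 371 and 363 CPM against 172, 201 and 190 CPM (-0.96, SE 0.08, adjusted p = 3.77e-09). CDC45 (1.60, SE 0.12) and POLD3 (1.05, SE 0.13) were higher in the libraries labelled uL3Δ, and CHAF1B (-1.50, SE 0.11), POLE (-1.07, SE 0.09), TK1 (-1.03, SE 0.12), CDT1 (-0.80, SE 0.14) and MCM6 (-0.77, SE 0.10) were lower. POLE2, 1 of the 7 genes called with vehicle alone, was at 9.53 to 10.3 CPM and 6.69 to 10.3 CPM and overlapped. The calls of 25 of the 34 genes held under every alternative run.

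In chromatin assembly factor 1 Act D lowered CHAF1A in both lines, where CHAF1B did not pass the test. With vehicle CHAF1B differed between the lines and CHAF1A did not pass the test, whereas with Act D both were called, CHAF1A higher (0.45 on the log2 scale, SE 0.09, a call lost when libraries were scaled by their totals alone) and CHAF1B lower under the uL3Δ label. On the TPM scale the ratio of CHAF1A to CHAF1B was 1.78 to 2.02 in vehicle-treated HCT 116p53-/- libraries and 0.857 to 0.962 with Act D, and in those labelled uL3Δ it was 5.42 to 8.66 and 2.73 to 3.32. No library of any group overlapped with another group in this ratio.

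**Figure D5:**
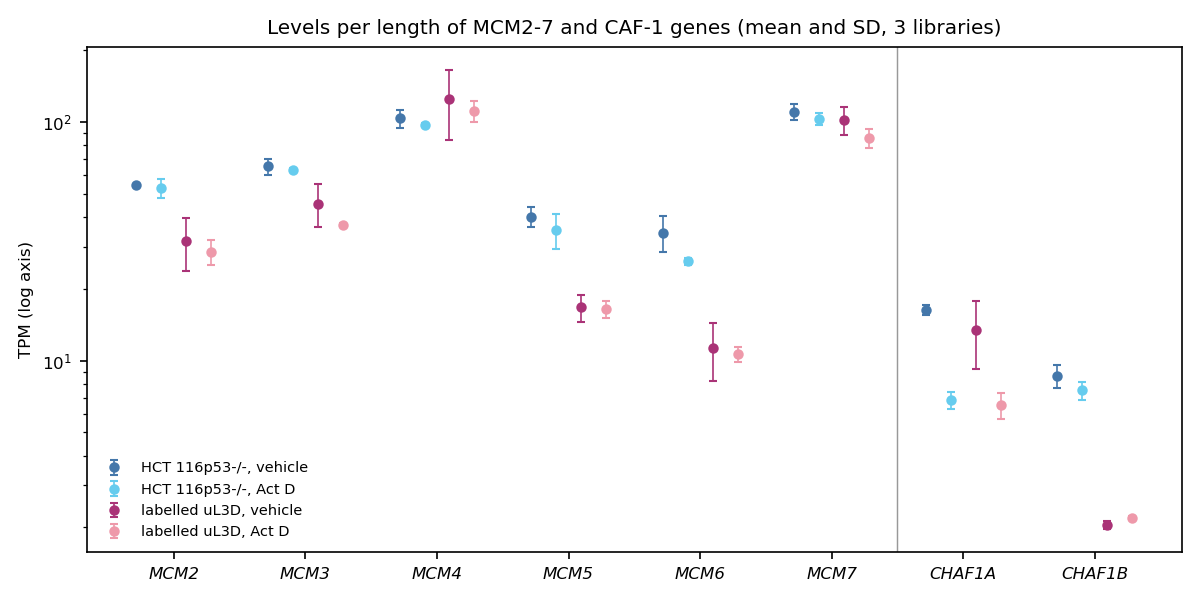
TPM (vertical, log axis) of the 6 MCM ring genes and the CHAF1A and CHAF1B genes of chromatin assembly factor 1 (horizontal) in the 4 groups, with points for the mean and bars for the SD of 3 libraries. The ring genes spread more widely in the libraries labelled uL3Δ, with MCM4 at 125 TPM and MCM6 at 11.3 TPM with vehicle, and CHAF1B is at 2.04 and 2.20 TPM there.

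Another 46 genes of the pathway were read in the same fit. They were listed by role, but with earlier results of these data known, so they are not an independent check. In HCT 116p53-/- cells Act D lowered 11 of them (beside 11.1% of all genes) and raised 3 (beside 7.59%), with 30.4% called, beside 18.7%. In the libraries labelled uL3Δ it lowered 3 (beside 8.4%) and raised 5 (beside 3.51%), with 17.4% called, beside 11.9%. None of the first 46 genes was called higher in those libraries. Of the 11 lowered in HCT 116p53-/- cells, 7 were among the 16 origin and initiation genes. Of the 9 nucleotide supply genes in this second list Act D lowered 2 and raised 1 in HCT 116p53-/- cells (33.3%, beside 18.7% of all genes). ORC2, of the origin recognition complex, was at 40.4, 38.4 and 38.4 CPM with vehicle and 22.6, 22.5 and 22.8 CPM with Act D in HCT 116p53-/- cells (log2 fold change -0.79, SE 0.10, adjusted p = 2.82e-05). Under the uL3Δ label it was at 23.1, 26.4 and 29.2 CPM and 28.5, 25.6 and 29.7 CPM, and the responses differed by 0.88 (SE 0.14, adjusted p = 0.00153). Between the lines 14 of these genes were higher and 20 lower with vehicle (73.9% called, near the 71.3% of all genes), and 17 and 14 with Act D (67.4%, beside 70.4%).

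Genes of other cell cycle functions were read in the same way, and the differences between these lists and the replication genes were not tested. Of 16 G2/M genes Act D raised MKI67 and lowered BUB1B in HCT 116p53-/- cells (12.5% called, beside 18.7% of all genes). None was called in the libraries labelled uL3Δ by edgeR's quasi-likelihood test or DESeq2 (beside 11.9% of all genes). There 5 were at an unadjusted p under 0.05, beside 3989 of the 15692 genes tested. The median log2 fold change of the 16 genes was 0.07 and -0.04 in the same order. Their summed level in HCT 116p53-/- libraries was 2658 to 2771 CPM with vehicle and 2894 to 2960 CPM with Act D. Of 13 genes of the E2F and RB families, which control the replication genes, 6 fell and 1 rose in HCT 116p53-/- cells (53.8%, beside 18.7% of all genes), and 5 fell and 1 rose in the libraries labelled uL3Δ (46.2%, beside 11.9%). RBL1, the p107 relative of RB, fell in both, from 31.9 ± 2.97 to 18.5 ± 1.23 CPM and from 20.9 ± 3.44 to 11.7 ± 0.806 CPM (SD, n = 3). CDKN1A, the p21 inhibitor of cyclin-dependent kinases, rose from 162 ± 10.0 to 554 ± 28.1 CPM in HCT 116p53-/- cells (log2 fold change 1.77, SE 0.08) and was at 74.3 ± 2.15 and 86.4 ± 4.01 CPM in the libraries labelled uL3Δ, where the change did not pass the test (adjusted p = 0.0881), and the responses differed by -1.56 (SE 0.11, adjusted p = 1.06e-06). What part these genes have in the changes of the replication genes was not tested.

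The presence of an E2F-type motif was set beside the calls. In HCT 116p53-/- cells Act D lowered 13 of the 32 genes whose window held the motif, beside 11.1% of all genes. It lowered 1 of the 7 whose window did not. The median log2 fold changes were close, at -0.18 with the motif and -0.20 without. In the libraries labelled uL3Δ 7 of 32 and 1 of 7 were lower, beside 8.4% of all genes, with medians of -0.10 and -0.05. A difference by motif was not tested. Between the lines with vehicle 9 genes were higher and 19 lower of the 32, and 3 higher and 1 lower of the 7. Over all genes 35.1% were called higher and 36.2% lower. Genes of both directions thus carried the motif.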

How the data were processed

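Total RNA of 12 libraries was sequenced after TruSeq preparation; whether strand was kept is not given in the sources used here. The authors trimmed reads, removed ribosomal and PhiX reads, and counted the rest against Ensembl gene models (hg38) in RSEM 1.2.25; they deposited expected counts, which are estimates that need not be whole, and TPM, scaled per transcript length within a library. In 11 libraries a value is given for each gene, with the posterior standard deviation of its count. The second HCT 116p53-/- vehicle library lists 226788 transcripts instead, which were added up gene by gene.

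Groups came from the labels. Expected counts were rounded and filtered with filterByExpr, leaving 15692 genes, and scaled by TMM (factors 0.847 to 1.148). All 12 libraries were fitted together with a coefficient per group and no replicate block (edgeR 4.0.16, R 4.3.3, limma 3.58.1), by the quasi-likelihood test, with p adjusted over all genes tested (Benjamini-Hochberg). A gene was called at an adjusted p under 0.05, and every adjusted p comes from this test unless DESeq2 1.42.0 is named. On simulated counts for Act D against vehicle in HCT 116p53-/- cells (14255 genes in the test), 39 of 96 genes changed by 0.5 on the log2 scale and 91 of 99 changed by 1 were recovered. There were 8 false calls. The simulation held only the libraries of that comparison, the same dispersion for every gene and few changed genes. Its recovery is therefore not that of the fit of all 12 libraries. P-values set a difference against the spread between libraries of a group, as estimated over all 4 groups with information shared across genes. They cover these libraries only.

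Posterior SDs were at most 1% of the count for 43 of the 46 genes; POLA2, PRIM1 and RNASEH2A, which share exons with other genes, had up to 12.6%, 2.85% and 9.30%. The lowest count of any of the 46 was 78. The members and lists were chosen with earlier results of these data known. Statistics are given for the up to 6 genes with the largest change in each direction among called genes whose groups do not overlap, and for the first and the most differing gene of a functional group; others were named after their values were seen. Alternatives were DESeq2, scaling by totals or by the upper quartile, no filter, a filter of 1 CPM in 3 libraries, a replicate block, only the groups compared, and each library left out. FPKM values were not used.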

Additional observations from a re-analysis of the deposited data

Results flagged for a closer look

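POLE2 and RFC4 were called as responding differently to Act D in the libraries labelled uL3Δ and in HCT 116p53-/- cells, by the interaction term of the edgeR fit. They are 4.35% of the 46 genes, beside 6.53% of all genes. Neither call was stable: that of POLE2 was lost in 8 and that of RFC4 in 12 of 18 alternative runs. The response of POLE2 was higher by 0.92 on the log2 scale (SE 0.24, adjusted p = 0.0272) and that of RFC4 by 0.48 (SE 0.13, adjusted p = 0.0363). In HCT 116p53-/- cells all 3 Act D libraries were below all 3 vehicle libraries for both genes, whereas in the libraries labelled uL3Δ the groups overlapped. RPL3 was not lower in those libraries, and what sets the responses apart was not tested.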

How the results depend on the processing

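Leaving out a library in turn gave 9 to 14 called replication genes for Act D in HCT 116p53-/- cells (17 with all), 2 to 7 for Act D in the libraries labelled uL3Δ (8 with all), 0 to 3 for the difference of the responses (2 with all), and 32 to 38 and 30 to 33 for the lines with vehicle and with Act D (38 and 34 with all). Where the difference of the responses gave 0, 9 to 12 genes were at an unadjusted p under 0.05. With all libraries 13 of the 46 were, beside 3326 of the 15692 genes tested. For Act D in the libraries labelled uL3Δ, upper-quartile scaling gave 3 genes, of which CLSPN was higher, and a fit of only the groups compared gave 3. DESeq2 gave 4 genes for the difference of the responses and library-size scaling 1. DESeq2 gave 18, 9, 38 and 34 genes for the other comparisons. Library-size scaling moved the median of all genes between the lines from -0.02 to -0.26 on the log2 scale; under it RPL3 turned to -0.11 with vehicle and -0.13 with Act D, and MCM7 with Act D turned from 0.24 to -0.0039. The cause of these changes was not tested.

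With the replicate block the counts were 16, 3, 37, 33 and 1 for Act D in HCT 116p53-/- cells, Act D in the libraries labelled uL3Δ, the lines with vehicle, the lines with Act D and the difference of the responses. In the labels, same-numbered libraries are linked by their number alone. The correlations of their deviations from the group means, between -0.104 and 0.101, were not above 0.1 in every pair. With 3 libraries a group, such correlations cannot exclude a pairing.

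Posterior uncertainty limits POLA2, PRIM1 and RNASEH2A. With 3 libraries a group, changes of 0.5 on the log2 scale were often missed in simulation, though its setting differed from the fit of all 12 libraries. A gene not called is not thereby shown to be unchanged.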
